A study of Rattus norvegicus with 9 samples.

Results

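The genes examined here are 7 genes of cholesterol synthesis and of its control by SREBP, the sterol regulatory element-binding proteins: Idi1, Fdps, Fdft1, Sqle, Cyp51, Dhcr7 and Insig1. They were taken from a list of 8 gene symbols, and every probeset that the array annotation gives to 1 of these symbols was used, which gave 10 of the 15923 probesets on the array. Idi1, Fdft1 and Cyp51 had 2 probesets each, the others had 1, and the eighth gene, Hmgcs1, was not analysed here because no probeset carried its name in the annotation used. All 10 probesets were among the 9125 that passed the filter on low signals.

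RNA from a resistance artery, the first side branch of the saphenous artery of the hind leg, was measured on 9 Affymetrix RAE230A arrays. The SHR group held 3 arrays of male spontaneously hypertensive rats, an inbred strain with genetic hypertension. The ACTH group held 3 arrays of male Wistar-Kyoto rats given adrenocorticotropic hormone under the skin for 4 weeks, and the WKY group held 3 arrays of male Wistar-Kyoto rats without that treatment. All rats were 16 weeks old, and each array carried RNA pooled from 2 to 3 rats, so that the spread between arrays is a spread between pools. The dose of ACTH is 0.1 mg/kg/day in the sample labels, and the methods of the study give another dose. SHR differ from WKY by strain and ACTH rats by a hormone treatment, so that an effect of blood pressure cannot be told apart from one of strain or hormone in these groups.

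Cholesterol is built from acetyl-CoA through mevalonate, isoprenoid units, squalene and lanosterol. When the endoplasmic reticulum is short of sterol, SCAP carries SREBP to the Golgi apparatus, where proteases free the part that enters the nucleus and switches on the genes of the pathway. Insig proteins hold SCAP and SREBP back when sterol is plentiful, and Insig1 is itself a target of SREBP.

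The values are MAS5 signals, which the authors scaled to the same mean on every array, and differences are given on the log2 scale as the change ± its standard error from limma. A probeset was called changed at a Benjamini-Hochberg adjusted p under 0.05 over all 9125 probesets. Markers of the artery wall were present on every array. The smooth muscle myosin heavy chain Myh11 read 5290 to 7550 and the endothelial adhesion protein Pecam1 122 to 237 on the 9 arrays, and the summed signal of 8 smooth muscle markers was 20600 to 22710 in SHR, 20630 to 21930 in ACTH and 19940 to 23980 in WKY. Other markers moved with the groups. The summed signal of 8 macrophage markers was 1063 to 1629 in SHR, 1612 to 2415 in ACTH and 460.3 to 1376 in WKY, with C1qc called higher in ACTH against WKY (2.34 ± 0.47, limma adjusted p = 0.0464). That of 6 endothelial markers was 2280 to 2765 in SHR, 2452 to 2938 in ACTH and 2844 to 3093 in WKY, where Vwf fell by 1.28 in SHR against WKY (adjusted p = 0.0118) while the other 5 had changes of 0.12 to 0.87, none called, and the median of the list was 0.29. The 3'/5' ratio, which rises as RNA gets shorter, was 3.57 to 5.16 in SHR, 3.67 to 4.52 in ACTH and 4.91 to 5.99 in WKY for GAPDH, and 8.35 to 9.14 in SHR, 8.37 to 9.68 in ACTH and 9.77 to 13.6 in WKY for beta-actin, which put every WKY array above all others. Of 10 skeletal muscle markers 2 were tested, and the summed signal of the list was 1480 to 1551 in SHR, 1262 to 1373 in ACTH and 1174 to 1243 in WKY. Acta1 rose by 0.92 ± 0.15 in SHR against WKY (adjusted p = 0.0107), and Myh1 went the other way, with 1377719_a_at lower by a called change of -0.79 ± 0.16 (adjusted p = 0.0333). The sums of fat cell and of Schwann cell markers overlapped between SHR and WKY and between ACTH and WKY. Of the fat cell markers, Cfd rose by 2.36 ± 0.45 in ACTH against WKY (adjusted p = 0.0366) and Cidea fell by 1.90 in SHR against WKY (adjusted p = 0.00205). The other tested fat cell markers had changes of 0.10 (Lpl) to 1.38 (Fabp4) in SHR against WKY, none called, and the list median there was 0.35. Apart from Cfd, those tested ran from -0.54 (Lpl) to 1.04 (Pck1) in ACTH against WKY, none called. Des, a smooth muscle marker, fell by 1.45 in SHR against WKY (adjusted p = 0.00717). The other smooth muscle markers were mixed in sign there, from -0.80 (Lmod1) to 0.23 (Tagln), none called, and the list median was -0.20. Under 22 alternative ways of processing the data, the marker calls against WKY were not equally firm. They held in 9 for C1qc and Cfd and in 8 for Myh1 1377719_a_at. For Vwf and Acta1 they held in 17, for Des in 18 and for Cidea in 20. The part of these differences in the results below was not tested, and in whole artery a lower signal from fewer cells of a type cannot be told apart from less RNA per cell.

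The promoters of Fdps, Cyp51 and Insig1 are shown because each gene had a probeset on which the arrays of ACTH and WKY did not overlap. That was so for 20.4% of all probesets, and the other Cyp51 probeset overlapped. Each is the RefSeq window of rat build GRCr8 from 250 bases before to 50 bases after the start of the gene, with the letters CCAAT (the NF-Y box) and GGGCGG (the Sp1 box), or their reverse complements ATTGG and CCGCCC, in capitals.
Fdps promoter (chr2:176804767-176805066, - strand): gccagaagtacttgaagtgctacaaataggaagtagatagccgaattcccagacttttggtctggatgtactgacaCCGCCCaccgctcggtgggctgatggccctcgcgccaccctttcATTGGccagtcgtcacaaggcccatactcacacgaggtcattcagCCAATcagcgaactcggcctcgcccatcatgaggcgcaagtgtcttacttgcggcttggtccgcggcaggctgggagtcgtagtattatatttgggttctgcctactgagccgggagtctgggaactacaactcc
Cyp51 promoter (chr4:30991443-30991742, + strand): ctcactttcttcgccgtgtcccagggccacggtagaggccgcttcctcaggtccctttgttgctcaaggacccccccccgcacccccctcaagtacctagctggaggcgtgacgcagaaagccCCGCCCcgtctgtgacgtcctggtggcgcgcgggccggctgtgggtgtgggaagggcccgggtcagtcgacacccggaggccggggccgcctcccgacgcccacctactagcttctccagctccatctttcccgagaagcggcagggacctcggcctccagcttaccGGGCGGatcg
Insig1 promoter (chr4:8057720-8058019, - strand): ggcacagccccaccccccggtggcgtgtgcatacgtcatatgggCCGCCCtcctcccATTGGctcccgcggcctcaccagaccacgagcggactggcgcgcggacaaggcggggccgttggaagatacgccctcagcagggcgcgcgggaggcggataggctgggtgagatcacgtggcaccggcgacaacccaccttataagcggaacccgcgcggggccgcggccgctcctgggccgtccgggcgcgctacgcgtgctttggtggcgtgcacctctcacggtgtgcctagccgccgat
The Fdps window held 2 CCAAT boxes and 1 Sp1 box, that of Insig1 held 1 of each, and that of Cyp51 held 2 Sp1 boxes and 0 CCAAT boxes. The Idi1 window held 2 CCAAT boxes and 0 Sp1 boxes, and the Dhcr7 window 2 overlapping Sp1 boxes. Of all 33469 promoters in the table, 37.5% held CCAAT and 33.1% held GGGCGG on either strand. TCACCCCAC, a form of the sterol response element that SREBP binds, was in 0.484% of all promoters and in 0 of the member windows. TCACNCCAC, with 1 free base, was in 1.12% of all promoters and again in 0. Of 57 promoters of genes in the pathway lists below, 0 held either form. Exact matches this rare cannot show whether the member genes lack a sterol response element. Sqle and Fdft1 are named without a window.

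No member probeset was called in any comparison. In SHR against WKY 0 of 10 passed, where 2.05% of all probesets did. In ACTH against WKY 0 of 10 passed, against 1.21% of all probesets, and in SHR against ACTH 0 of 10 passed, against 3.4%. The limma F test over the 3 groups also called 0 of 10, against 4.11% of all probesets, with a lowest adjusted p of 0.139. At an unadjusted p under 0.05 the counts were 0, 0 and 1 of 10 in the same order of comparisons, where 16.4%, 12.5% and 17.2% of all probesets lay. The median log2 change over the 10 member probesets was -0.04 in SHR against WKY, -0.19 in ACTH against WKY and 0.10 in SHR against ACTH, and the medians over all tested probesets were 0.00, 0.02 and -0.02. Over the 7 genes, each by its probeset with the highest mean log2 signal, the medians were -0.04, -0.20 and 0.21.

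**Figure D1:**
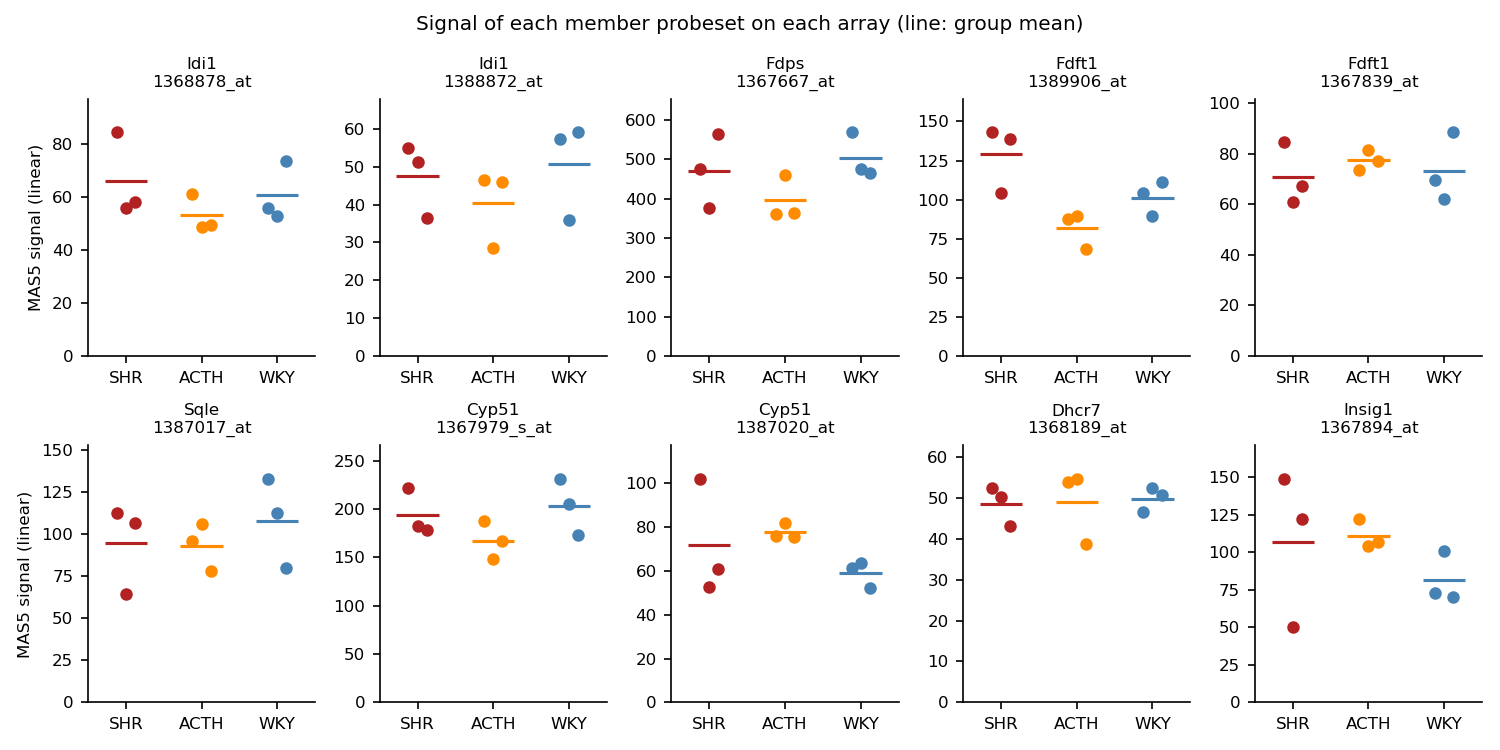
MAS5 signal (linear scale, from 0) of the 10 member probesets on each of 3 SHR, 3 ACTH and 3 WKY arrays; points are arrays and lines are group means. The ACTH arrays lie below all WKY arrays for Fdps (360 to 461 against 465 to 568) and above them for Cyp51 1387020_at and Insig1, and the SHR arrays lie above all ACTH arrays for Fdft1 1389906_at.

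Idi1 is the isomerase that makes dimethylallyl diphosphate, the starter of isoprenoid chains. Its probeset 1368878_at read 84.5, 55.9 and 58.1 on the SHR arrays, 61.2, 48.6 and 49.5 on the ACTH arrays and 56, 53 and 73.6 on the WKY arrays. The groups overlapped, with SHR 1 the highest array. The log2 change was 0.11 ± 0.20 in SHR against WKY (limma adjusted p = 0.827), -0.19 ± 0.20 in ACTH against WKY (adjusted p = 0.78) and 0.30 ± 0.20 in SHR against ACTH (adjusted p = 0.492). The second Idi1 probeset, 1388872_at, read 36.4 to 54.9 in SHR, 28.6 to 46.5 in ACTH and 36 to 59.1 in WKY, also overlapping. Its changes were -0.08 ± 0.26, -0.33 ± 0.26 and 0.25 ± 0.26 in the same order, with 95% intervals of -0.66 to 0.49, -0.91 to 0.24 and -0.33 to 0.82.

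Fdps, farnesyl diphosphate synthase, builds the isoprenoid chain that feeds both squalene and protein prenylation. Its signal was 476, 376 and 563 on the SHR arrays, 360, 461 and 363 on the ACTH arrays and 568, 476 and 465 on the WKY arrays. All 3 ACTH arrays lay below all 3 WKY arrays, by as little as 461 against 465 for the closest pair, while the SHR arrays spanned most of the range of both. The change was -0.35 ± 0.18 in ACTH against WKY (95% interval -0.76 to 0.05, limma adjusted p = 0.49). It was -0.11 ± 0.18 in SHR against WKY (adjusted p = 0.81) and 0.25 ± 0.18 in SHR against ACTH (adjusted p = 0.542).

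Fdft1 is squalene synthase, the first enzyme that is committed to sterols. Its probeset 1389906_at read 143, 104 and 139 on the SHR arrays, 87.3, 89.4 and 68.7 on the ACTH arrays and 104, 89.3 and 111 on the WKY arrays. All SHR arrays were above all ACTH arrays, and each of these groups overlapped with WKY. The change in SHR against ACTH was 0.65 ± 0.18, the largest in size of the 30 member values, with a 95% interval of 0.26 to 1.04 and an unadjusted p of 0.00395 in limma, and it did not pass after adjustment (adjusted p = 0.0795). It passed in 1 of 22 alternatives, the filter that keeps probesets with a mean signal of at least 100 (adjusted p = 0.0483), and over all of them the adjusted p was 0.0483 to 0.337 and the change 0.53 to 0.80. On the scan day that SHR 3 shared with the ACTH arrays the difference was 0.78. In SHR against WKY the change was 0.34 ± 0.18 (adjusted p = 0.377), and in ACTH against WKY it was -0.31 ± 0.18 (adjusted p = 0.544).

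The other Fdft1 probeset, 1367839_at, did not follow the first. It read 84.6, 60.7 and 67.2 in SHR, 73.4, 81.5 and 77.1 in ACTH and 69.5, 62 and 88.4 in WKY, with overlap throughout. Its change in SHR against ACTH was -0.14 ± 0.18 (95% interval -0.53 to 0.25, limma adjusted p = 0.747), opposite in sign to that of 1389906_at. The log2 ratio of 1389906_at over 1367839_at was 0.76, 0.77 and 1.05 on the SHR arrays, 0.25, 0.13 and -0.17 on the ACTH arrays and 0.58, 0.53 and 0.33 on the WKY arrays. The ratios of the 3 groups did not overlap, with SHR highest and ACTH lowest. How often the ratios of other paired probesets on the array do not overlap was not counted. The difference of SHR from ACTH was 0.79 (exact two-sided permutation p = 0.1, the smallest that 3 against 3 arrays allow, 0.225 after adjustment over 9 such tests). It was 0.39 for SHR against WKY and -0.40 for ACTH against WKY, with the same p.

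**Figure D2:**
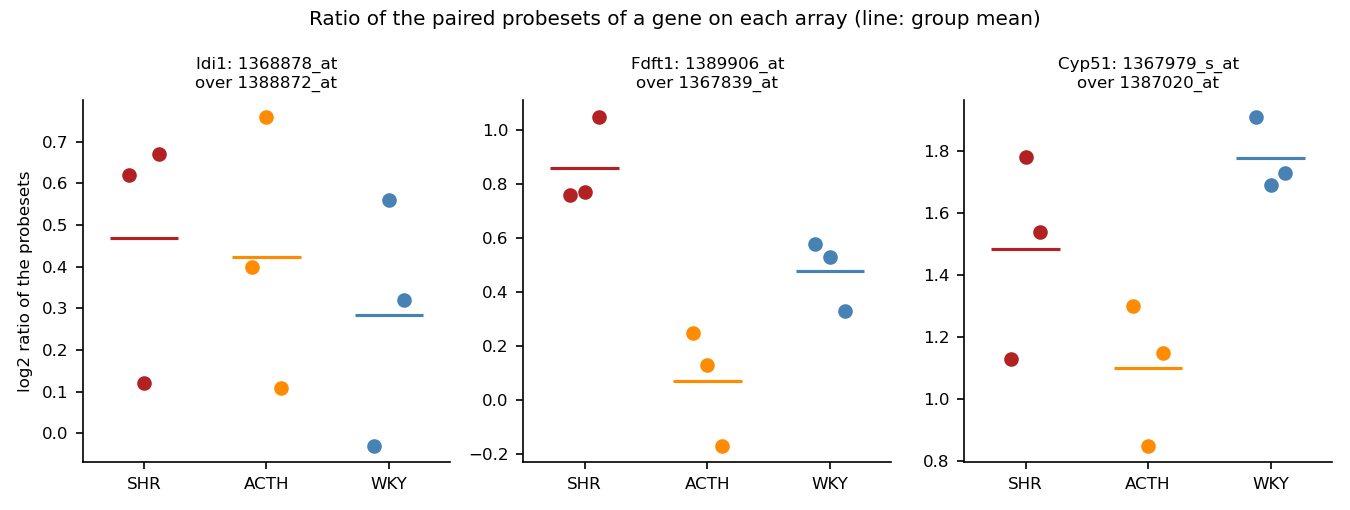
Log2 ratio of the paired probesets of Idi1, Fdft1 and Cyp51 on each array, with SHR, ACTH and WKY from left to right; points are arrays, lines are group means, and each panel has its own axis. The Fdft1 ratios of the 3 groups do not overlap (SHR 0.76 to 1.05, ACTH -0.17 to 0.25, WKY 0.33 to 0.58), and the Cyp51 ratios of ACTH (0.85 to 1.30) lie below those of WKY (1.69 to 1.91).

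Sqle, squalene epoxidase, adds the oxygen that allows squalene to close into a sterol. Its signal was 113, 64.5 and 107 on the SHR arrays, 95.8, 106 and 78.5 on the ACTH arrays and 133, 113 and 80.1 on the WKY arrays. The groups overlapped, SHR 2 being the lowest of the 9 arrays and WKY 1 the highest. The change was -0.21 ± 0.25 in SHR against WKY (limma adjusted p = 0.725), -0.20 ± 0.25 in ACTH against WKY (adjusted p = 0.821) and -0.01 ± 0.25 in SHR against ACTH (adjusted p = 0.989). The last has a 95% interval of -0.56 to 0.55, which leaves room for a difference of either sign.

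Cyp51 is the cytochrome P450 that demethylates lanosterol. Probeset 1387020_at read 102, 52.8 and 61 on the SHR arrays, 76.1, 82.1 and 75.3 on the ACTH arrays and 61.5, 63.5 and 52.3 on the WKY arrays. All ACTH arrays were above all WKY arrays, and the SHR group held both the second lowest array of the 9 and the highest. The change in ACTH against WKY was 0.40 ± 0.22 (95% interval -0.09 to 0.89, limma adjusted p = 0.527). Probeset 1367979_s_at, designed from the same sequence record, read 222, 182 and 178 in SHR, 188, 148 and 167 in ACTH and 231, 205 and 173 in WKY. Here ACTH overlapped with WKY, and the change was -0.28 ± 0.16 (95% interval -0.64 to 0.09, adjusted p = 0.565), opposite in sign. The log2 ratio of 1367979_s_at over 1387020_at was lower in every ACTH array than in every WKY array, by 0.68 in the means (difference -0.68, exact two-sided permutation p = 0.1, 0.225 after adjustment). In SHR against WKY the changes were 0.23 ± 0.22 for 1387020_at and -0.06 ± 0.16 for 1367979_s_at (adjusted p = 0.646 and 0.882).

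Dhcr7 is the reductase of the last step to cholesterol. Its signal was 52.4, 50.1 and 43 on the SHR arrays, 53.8, 54.6 and 38.8 on the ACTH arrays and 46.4, 52.5 and 50.6 on the WKY arrays. The groups overlapped, with means of 48.5 ± 4.93 in SHR, 49 ± 8.91 in ACTH and 49.8 ± 3.11 in WKY (SD, n = 3 each). The 95% interval of the change was -0.41 to 0.33 in SHR against WKY, -0.41 to 0.33 in ACTH against WKY and -0.37 to 0.36 in SHR against ACTH.

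Insig1 holds the SCAP and SREBP complex in the endoplasmic reticulum. Its signal was 149, 50.5 and 122 on the SHR arrays, 122, 104 and 107 on the ACTH arrays and 73.2, 101 and 70 on the WKY arrays. All ACTH arrays were above all WKY arrays, and SHR held both the highest and the lowest array of the 9. The change in ACTH against WKY was 0.47 ± 0.34 (95% interval -0.28 to 1.22, limma adjusted p = 0.648). In SHR against WKY it was 0.28 ± 0.34 (adjusted p = 0.727), and it was 0.75 without SHR 2 and -0.03 without SHR 1. In SHR against ACTH it was -0.19 ± 0.34 (adjusted p = 0.834).

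**Figure D3:**
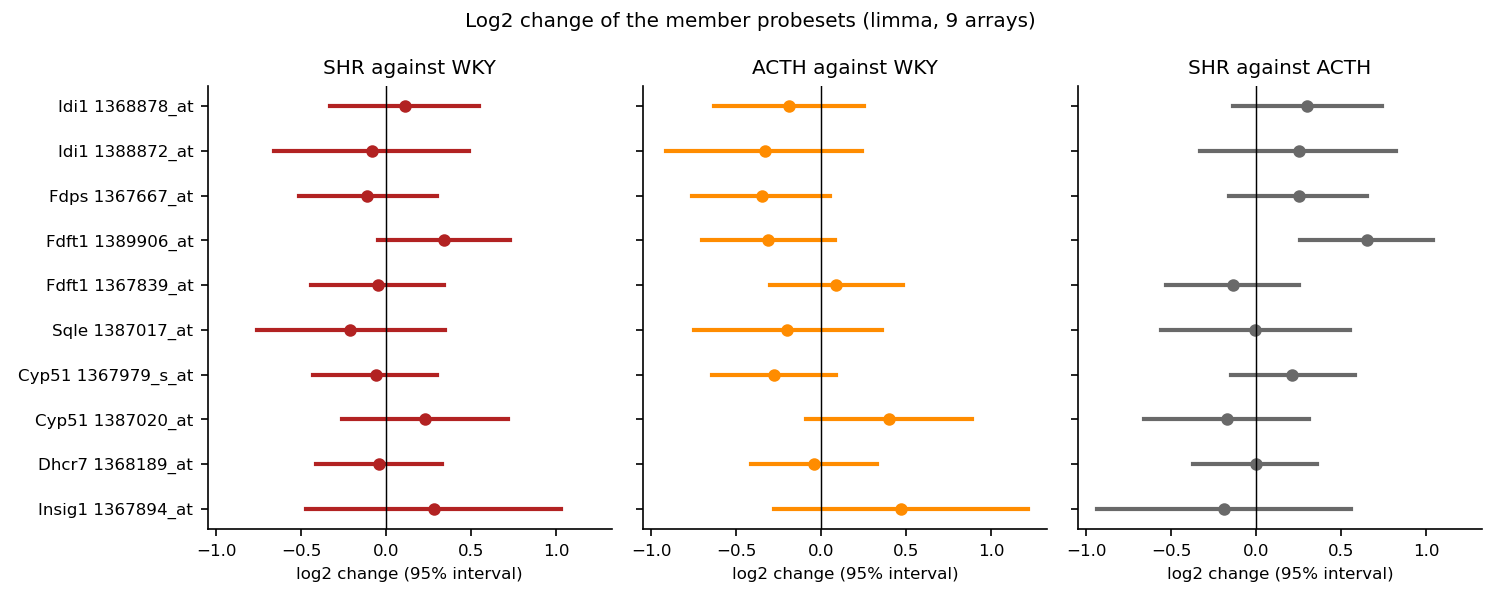
Log2 change of each member probeset in SHR against WKY, ACTH against WKY and SHR against ACTH; points are limma estimates from 9 arrays and bars are 95% intervals. The only interval that leaves out 0 is that of Fdft1 1389906_at in SHR against ACTH (0.26 to 1.04), which did not pass the adjusted threshold.

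Groups that did not overlap were counted for each comparison. In SHR against WKY there were 0 of 10 such probesets, where 19.4% of all probesets did not overlap. In ACTH against WKY there were 3 of 10, where 20.4% did not overlap: Cyp51 1387020_at and Insig1 higher in every ACTH array (10.7% of all probesets) and Fdps lower in every ACTH array (9.76%). In SHR against ACTH there was 1 of 10, Fdft1 1389906_at, higher in every SHR array (11.7% of all probesets), where 24.9% did not overlap in either direction. The comparisons of SHR and of ACTH with WKY share the WKY arrays. No scan day held both ACTH and WKY arrays, so that day and group cannot be told apart there except through the SHR arrays, and when the fit blocked on scan day the Insig1 change in ACTH against WKY was -0.36, opposite in sign.

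The SHR arrays differed widely among themselves. Over the 7 genes, each by its probeset with the highest mean log2 signal, the mean standardised log2 signal was 1.09, -0.70 and 0.33 on the SHR arrays, -0.02, -0.22 and -1.04 on the ACTH arrays and 0.40, 0.19 and -0.03 on the WKY arrays. SHR 1 was the highest array of all, and SHR 2 was lower than every array but ACTH 3. Over the 9 arrays the 21 pairs of member genes had Pearson correlations of -0.03 to 0.73 with a median of 0.21, the highest between Fdps and Sqle, and these points share the array and its scaling. The genes outside the members whose log2 signal followed this mean most closely, of 6911 genes, were Ncald (r = 0.97), Decr2 (0.95), Nus1 (0.94), Atxn3 (0.89) and Msi2 (0.89), and the lowest were Fam193a (-0.94) and Rps6kc1 (-0.93), over 9 arrays. Without the 2 arrays farthest from the median, SHR 1 and ACTH 3, r was 0.88, 0.83, 0.80, 0.68, 0.88, -0.93 and -0.80 in that order. The extremes of 6911 correlations over 9 arrays can be this large without a link between the genes. None of these 7 genes is in the pathway lists below. Those lists are a selection, so that this does not show that none of the 7 works in or beside the pathway.

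**Figure D4:**
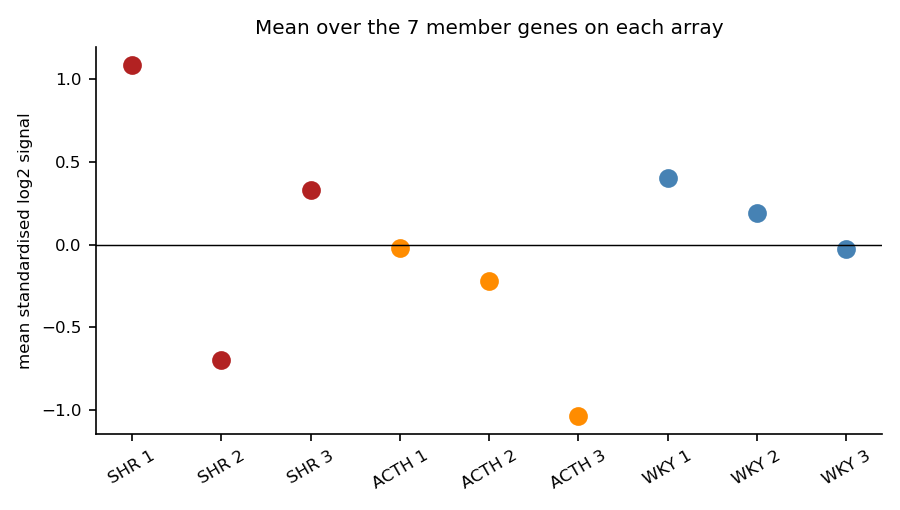
Mean standardised log2 signal of the 7 member genes on each array, with SHR, ACTH and WKY from left to right; each point is 1 array. SHR 1 (1.09) is the highest of the 9 arrays, while SHR 2 (-0.70) of the same group is above ACTH 3 (-1.04) alone.

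The pathway as a whole, with the members included, was counted from lists of 71 genes. Of these, 58 had a named probeset and 47 were tested. On the probeset with the highest mean signal of each gene, 0 of 47 were called higher and 0 of 47 lower in each of the 3 comparisons. At an unadjusted p under 0.05 in limma there were 6 in SHR against WKY, 10 in ACTH against WKY and 5 in SHR against ACTH of 47, where 16.4%, 12.5% and 17.2% of all probesets lay, and 2.05%, 1.21% and 3.4% of all probesets were called. The members gave 0, 0 and 1 of these counts, the 1 being Fdft1. The median log2 changes of the 47 genes were -0.04, -0.03 and 0.03.

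The transcription factors themselves were not called. Srebf2, the main driver of the sterol genes, read 227 to 379 in SHR, 233 to 339 in ACTH and 273 to 368 in WKY, with changes of -0.07 ± 0.22 in SHR against WKY and -0.21 ± 0.22 in ACTH against WKY (limma adjusted p = 0.91 and 0.78). Srebf1, which favours fatty acid genes, had 1 probeset, 1371104_at, above WKY on every SHR array (0.56 ± 0.23, adjusted p = 0.261), and another, 1388426_at, that overlapped (0.08 ± 0.16, adjusted p = 0.841). Scap, the escort of SREBP, read 183 to 273 in SHR and 279 to 312 in ACTH, a change of -0.36 ± 0.17 in SHR against ACTH (adjusted p = 0.307). Mbtps2, a Golgi protease that frees SREBP, was above every WKY array in ACTH (0.26 ± 0.18, adjusted p = 0.624).

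Among the enzymes upstream and downstream of the members, Pmvk, phosphomevalonate kinase, read 321, 351 and 334 on the ACTH arrays and 480, 488 and 410 on the WKY arrays. The ACTH arrays were all lower, by a log2 change of -0.45 ± 0.14 that did not pass (limma adjusted p = 0.204). Msmo1, a methylsterol oxidase that acts after Cyp51, read 256 to 308 in SHR, 273 to 289 in ACTH and 207 to 235 in WKY. Both were above all WKY arrays, with changes of 0.32 ± 0.13 and 0.31 ± 0.13 (adjusted p = 0.267 and 0.369). Lss, lanosterol synthase, and Acat2, the thiolase at the head of the pathway, overlapped between SHR and WKY (-0.42 ± 0.20 and -0.13 ± 0.23). In the isoprenoid branch Fntb, a subunit of protein farnesyltransferase, was below every WKY array in ACTH (-0.60 ± 0.23, adjusted p = 0.308), and Rabggtb, a subunit of the enzyme that prenylates Rab proteins, overlapped (-0.19 ± 0.18, adjusted p = 0.75).

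Of the pathway genes outside the members, Scarb1 alone had a probeset that was called. Scarb1, the receptor that takes up cholesterol from high-density lipoprotein, read 148, 124 and 124 on the SHR arrays, 75.2, 89.8 and 111 on the ACTH arrays and 55.1, 80.3 and 39.6 on the WKY arrays with probeset 1367855_at. Every SHR array was above every WKY array, and the signal rose by 1.23 ± 0.24 (limma adjusted p = 0.0314). The probeset with the higher mean signal, 1386956_at, which stands for the gene in the counts above, read 240, 259 and 181 in SHR, 116, 120 and 149 in ACTH and 91.2, 156 and 54.1 in WKY, a change of 1.29 ± 0.32 that did not pass (adjusted p = 0.0777). It passed in 4 of 22 alternatives, with changes of 0.67 to 1.67 and adjusted p of 0.0109 to 0.345 over all of them. The call of 1367855_at held in 9 of 21 alternatives, with changes of 0.76 to 1.49 and adjusted p of 0.00859 to 0.356. It was lost in the fit that blocks on scan day (0.76 ± 0.27), in that with the replicate block (adjusted p = 0.0563) and without any 1 of SHR 1, SHR 2, SHR 3, WKY 1 or WKY 3, and also with all non-control probesets, array weights, the GAPDH ratio in the model, SHR and WKY fitted alone, or no moderation. Vldlr, a lipoprotein receptor, had changes of -0.48 ± 0.20 in SHR and -0.50 ± 0.20 in ACTH against WKY on probeset 1369098_at, neither called (adjusted p = 0.26 and 0.326). The changes were -0.15 ± 0.18 and -0.38 ± 0.18 on 1389611_at, which stands for the gene in the counts, and -0.19 ± 0.17 and -0.13 ± 0.17 on 1387455_a_at.

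Of the SREBP targets in fatty acid synthesis, Thrsp, which promotes lipid synthesis, read 97.4, 90.7 and 61.7 on the SHR arrays, 95.8, 76.4 and 40.9 on the ACTH arrays and 13, 45.1 and 18.3 on the WKY arrays. All SHR arrays were above all WKY arrays (1.89 ± 0.44, limma adjusted p = 0.0591), and WKY 2 was the highest of its group. Me1, the malic enzyme that supplies NADPH, was below every WKY array in ACTH on both probesets, by -0.51 ± 0.14 on 1370870_at (adjusted p = 0.134). Fasn, fatty acid synthase, differed by -0.44 ± 0.17 on 1367708_a_at in ACTH against WKY (adjusted p = 0.329) and by -0.02 ± 0.19 on 1367707_at. Scd, the desaturase, was not tested, since its third-highest signal of 41.5 lay just under the minimum of 44. It read 54.7, 42.3 and 35.4 in SHR, 37.1, 41.5 and 23.5 in ACTH and 12.4, 20.1 and 10.1 in WKY. All SHR and all ACTH arrays lay above all WKY arrays. Groups did not overlap for 19.4% and 20.4% of tested probesets in these 2 comparisons, in either direction.

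Genes of sterol efflux were not called either. Nr1h2, the sterol-sensing receptor LXR beta, read 214, 204 and 205 on the ACTH arrays and 145, 119 and 148 on the WKY arrays, a change of 0.60 ± 0.18 (limma adjusted p = 0.168). Apoe, which carries cholesterol out of macrophages and other cells, read 1570, 1550 and 1560 in SHR, 1540, 2490 and 1320 in ACTH and 732, 1330 and 342 in WKY. Its changes were 1.17 ± 0.41 in SHR and 1.31 ± 0.41 in ACTH against WKY (adjusted p = 0.196 and 0.189). In ACTH against WKY the macrophage markers had a median change of 1.35, with 7 of 8 at an unadjusted p under 0.05 in limma and 1 of 8 called higher. In SHR against WKY their median was 0.83, with 2 of 8 at that p and 0 called. WKY 2 had the highest macrophage sum of its group (1376, against 460.3 and 573 on WKY 1 and WKY 3). It also had the highest Schwann cell sum (2551, against 1891 and 1631). The part of these markers in the Apoe values was not tested.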

How the data were processed

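RNA of the saphenous artery branch was measured on 9 RAE230A arrays, 3 each of SHR, ACTH and WKY, grouped by the sample titles. The RNA was amplified before labelling, which favours the 3' end of transcripts. The authors computed 1 signal per probeset and array with MAS5, scaled to a common target, and deposited these intensity values on a linear scale. The deposited experiment files were used for the scan day alone, which was read as 4 days without further use of the dates.

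Of 15923 probesets 57 are Affymetrix controls. Of the others, the 9125 with a third-highest signal of at least 44 were kept, a minimum that keeps about as many as the study analysed, since no detection calls were used here. Gene names come from the platform annotation, of which 12754 of 12789 single-symbol identifiers were in the RefSeq table. Log2 signals were fitted to 3 group means with limma 3.58.1 in R 4.3.3 (lmFit, eBayes without trend, 6 residual and 4.42 prior degrees of freedom). P-values are two-sided and adjusted by the Benjamini-Hochberg method over all kept probesets. Ratios of paired probesets were compared by exact permutation tests. Of several kept probesets of a gene, the one whose log2 signal averaged highest stands for it in list counts. The fit was tested on simulated data. Precision is limited by 3 arrays a group, and nothing in the labels says whether the pools came from separate cohorts, so that p-values measure the spread between these pools.

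All member probesets are named. Other pathway genes are named when called, when among the 2 lowest p of their list, or when on a short list (Srebf1, Srebf2, Lss, Scd, Fasn, and others not reported here), markers when called, and neighbours as the 5 highest and 2 lowest correlations. The members, the lists and the tests were chosen with earlier results of these data known. Alternatives were other filters, normalizations, an added 16 before log2, a variance trend, array weights, the GAPDH ratio in the model, blocks for scan day and for replicate number, fits without the third group, the unmoderated test of the methods, and each array left out.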

Additional observations from a re-analysis of the deposited data

Results flagged for a closer look

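Among the named genes, 3 differed between the models themselves, that is in SHR against ACTH by the limma test of that difference, and all are cell type markers. Markers were named only when called in some comparison, and 3.4% of all probesets were called in SHR against ACTH. Des, the muscle intermediate filament desmin, read 459, 807 and 838 in SHR and 1710, 1670 and 1480 in ACTH, a log2 change of -1.25 (adjusted p = 0.0138). The other smooth muscle markers were not called and were mixed in sign, from -0.88 (Lmod1) to 0.33 (Tagln), with a list median of -0.19. Cd14, a macrophage receptor, read 127, 77.5 and 97.1 in SHR and 183, 177 and 167 in ACTH, a change of -0.83 (adjusted p = 0.0375). Cidea, a lipid droplet protein of fat cells, read 53.9, 92.6 and 88.1 in SHR and 316, 349 and 300 in ACTH, a change of -2.08 (adjusted p = 0.00127). Of 22 alternatives each, the call held in 17 for Des, 10 for Cd14 and 21 for Cidea. The other tested fat cell markers were not called and were mixed in sign: Fabp4 at 1.13 and Lpl at 0.64 were higher on every SHR array (adjusted p = 0.311 and 0.0658), while Cfd was at -1.14 and Pck1 at -0.69. None of the member probesets was called in that comparison, and the part of these markers in the member values was not tested.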

How the results depend on the processing

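No member probeset was called under any alternative, each array left out included, except Fdft1 1389906_at in SHR against ACTH when only probesets with a mean signal of at least 100 were tested (1 called, adjusted p = 0.0483, against 0). Directions were less firm: the sign held in every alternative for 1 of 10 member probesets in SHR against WKY, 4 of 10 in ACTH against WKY and 5 of 10 in SHR against ACTH. Over 2661 values of all named probesets the sign changed in 124, in 0 of which the value was called in either fit, 85 calls were lost and 40 gained; the cause was not tested.

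Over all probesets 187 were called in SHR against WKY, 110 in ACTH against WKY, 310 in SHR against ACTH and 375 by the F test over the 3 groups. In that order the counts were 72, 0, 52 and 63 with all non-control probesets, where more probesets were tested, 25, 0, 35 and 41 with scan day as a block, and 88, 5, 119 and 117 with the methods' test without moderation. With array weights they were 201 in ACTH against WKY, 889 in SHR against ACTH and 733 by F, and with the GAPDH ratio as a covariate 34 in SHR against WKY, 0 in ACTH against WKY and 168 by F. SHR against WKY gave 98 when only the groups compared were fitted. With each array left out in turn the counts were 103 to 215, 33 to 133, 111 to 325 and 160 to 392. They moved by over 1.5 times without SHR 1, SHR 2, ACTH 1, WKY 1 or WKY 3 in SHR against WKY, without any ACTH array, WKY 1 or WKY 3 in ACTH against WKY, without SHR 2, SHR 3 or any ACTH array in SHR against ACTH, and without SHR 2 or any ACTH array in the F test. At the thresholds of the methods, without adjustment, 501, 376 and 602 probesets passed in the 3 comparisons and 0 members. The replicate block gave 160, 97, 263 and 313 calls and 0 members. Replicate numbers did not pair the arrays: 1 of 9 same-number pairs correlated above 0.1 (-0.07 to 0.13), and 4 of 9 arrays were closest to their own number.

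The log2 changes whose sign turned, none of them called, were these. With quantile normalization, SHR against WKY was Fasn 1367707_at 0.01. With quantile normalization, SHR against ACTH was Sqle 1387017_at 0.05, Dhcr7 1368189_at 0.08 and Srebf1 1388426_at 0.03. With median centring, SHR against WKY was Fasn 1367707_at 0.02. With median centring, SHR against ACTH was Sqle 1387017_at 0.03, Dhcr7 1368189_at 0.04 and Srebf1 1388426_at 0.03. With array weights, SHR against WKY was Idi1 1368878_at -0.02, Insig1 1367894_at 0.00, Srebf2 1371979_at 0.04, Rabggtb 1387911_at -0.08 and Cd14 1368490_at -0.10. With array weights, ACTH against WKY was Fasn 1367707_at 0.13 and Acat2 1372462_at -0.01. With array weights, SHR against ACTH was Fasn 1367707_at -0.17, Msmo1 1368275_at -0.03, Mbtps2 1383621_at -0.04, Srebf1 1388426_at 0.07 and Myh1 1377719_a_at 0.02. With the GAPDH ratio as a covariate, SHR against WKY was Idi1 1368878_at -0.17, Fdps 1367667_at 0.17, Sqle 1387017_at 0.10, Fasn 1367707_at 0.08, Srebf2 1371979_at 0.35, Acat2 1372462_at 0.09, Rabggtb 1387911_at -0.19 and Scap 1389567_at 0.08. With the GAPDH ratio as a covariate, ACTH against WKY was Fdft1 1367839_at -0.09, Sqle 1387017_at 0.13, Fasn 1367707_at 0.07, Srebf2 1371979_at 0.24, Des 1367600_at 0.08 and Vwf 1389234_at 0.02. With scan day as a block, SHR against WKY was Idi1 1388872_at 0.56, Fdft1 1367839_at 0.21, Insig1 1367894_at -0.22, Me1 1370067_at 0.05, Acat2 1372462_at 0.03, Vldlr 1389611_at 0.11, Cd14 1368490_at -0.13, C1qc 1373025_at -0.26 and Cfd 1388602_at -0.08. With scan day as a block, ACTH against WKY was Idi1 1368878_at 0.24, Idi1 1388872_at 0.67, Dhcr7 1368189_at 0.14, Insig1 1367894_at -0.36, Srebf1 1371104_at -0.41, Acat2 1372462_at -0.03, Lss 1372973_at 0.10, Vldlr 1387455_a_at 0.09, Rabggtb 1387911_at 0.09, Scap 1389567_at -0.37 and Cidea 1389179_at -0.06. With scan day as a block, SHR against ACTH was Idi1 1388872_at -0.11, Sqle 1387017_at 0.20, Insig1 1367894_at 0.14, Vldlr 1369098_at -0.09, Thrsp 1371400_at -0.12, Acat2 1372462_at 0.07 and Myh1 1377719_a_at 0.08. With each array left out, SHR against WKY ranged as Idi1 1368878_at -0.08 to 0.25, Idi1 1388872_at -0.31 to 0.10, Fdps 1367667_at -0.24 to 0.05, Fdft1 1367839_at -0.18 to 0.10, Sqle 1387017_at -0.41 to 0.05, Cyp51 1367979_s_at -0.17 to 0.03, Cyp51 1387020_at -0.05 to 0.42, Dhcr7 1368189_at -0.10 to 0.04, Insig1 1367894_at -0.03 to 0.75, Fasn 1367707_at -0.09 to 0.08, Me1 1370067_at -0.12 to 0.07, Srebf2 1371979_at -0.25 to 0.12, Acat2 1372462_at -0.29 to 0.02, Rabggtb 1387911_at -0.12 to 0.17, Srebf1 1388426_at -0.05 to 0.15, Vldlr 1389611_at -0.27 to 0.03 and Cd14 1368490_at -0.14 to 0.22. With each array left out, ACTH against WKY ranged as Fdft1 1367839_at -0.02 to 0.24, Dhcr7 1368189_at -0.12 to 0.12, Fasn 1367707_at -0.23 to 0.13, Srebf1 1371104_at -0.03 to 0.38, Acat2 1372462_at -0.06 to 0.29 and Vldlr 1387455_a_at -0.24 to 0.01. With each array left out, SHR against ACTH ranged as Sqle 1387017_at -0.16 to 0.25, Cyp51 1387020_at -0.45 to 0.02, Dhcr7 1368189_at -0.17 to 0.08, Insig1 1367894_at -0.50 to 0.29, Fasn 1367707_at -0.14 to 0.22, Msmo1 1368275_at -0.06 to 0.07, Vldlr 1369098_at -0.13 to 0.11, Apoe 1370862_at -0.33 to 0.13, Thrsp 1371400_at -0.07 to 0.55, Srebf2 1371979_at -0.04 to 0.32, Mbtps2 1383621_at -0.13 to 0.21, Vldlr 1387455_a_at -0.17 to 0.05, Srebf1 1388426_at -0.14 to 0.08 and Myh1 1377719_a_at -0.19 to 0.01.

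With 3 pools a group, the 95% intervals of the members reached log2 changes as low as -0.94 and as high as 1.22, so that a change which was not called may still be sizeable. Within a scan day, SHR 1 and SHR 2 minus WKY 2 gave 0.45 for Fdft1 1389906_at, -0.17 for Fdps and -0.22 for Insig1, and SHR 3 minus the ACTH arrays gave 0.78, 0.52 and 0.14; no day held ACTH and WKY together, and the SHR against WKY block rests on WKY 2 alone. The 5 neighbours of highest correlation included 4 again with median centring (all but Atxn3), and of the lowest Rps6kc1 again but not Fam193a.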
